A study of Mus musculus with 5 samples.

Results

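A set of 1002 genomic regions carried a peak of E2F1 and a peak of E2F3B but no peak of E2F3A in ChIP-seq of mouse embryonic fibroblasts (MEFs, connective tissue cells grown from embryos). These regions were chosen by peak overlap alone: peaks of the E2F1, E2F3A and E2F3B lists that overlapped by at least 1 bp were merged, which gave 7852 regions, and a region was kept when E2F1 and E2F3B were present and E2F3A was not. The 1002 regions made up 12.8% of all merged regions and took in 1005 of the 3787 E2F1 peaks (26.5%) and 1051 of the 4704 E2F3B peaks (22.3%). Presence and absence in the lists therefore define the set and are not a result about it.

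The fibroblasts were of a mixed FVB/NT, 129S1/Svlmj and C57BL/6NT background and proliferated without synchronization in medium with serum. The 3 groups used here stably overexpressed E2F1, E2F3A or E2F3B, with 1 library and 1 peak list each. E2F1 was precipitated with an anti-E2F1 antibody, and the E2F3A and E2F3B libraries were both precipitated with the same anti-E2F3 antibody. The series also has a sample of genotype 1-/- and a sample of genotype 3-/-, which were not analysed here. The labels do not say whether the overexpressing cells kept their own E2f1 and E2f3 genes, nor how strongly each protein was overexpressed. Protein from the cells' own genes therefore cannot be told apart from the overexpressed one.

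E2F proteins bind DNA as partners of DP proteins, and the retinoblastoma protein RB holds them in check until cells are committed to S phase. E2F1 and E2F3 belong to the activator branch of the family, best known for genes of DNA replication, nucleotide supply and cell cycle entry. E2F3A and E2F3B come from the same gene through separate promoters and first exons, so they share the DNA-binding, dimerization and RB-binding parts and differ at the N-terminus. The regions described here are thus ones where the peak calls differed between libraries of proteins with the same DNA-binding domain.

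With 1 library per protein there was no spread between replicates, and every statement below describes these 3 libraries. The E2F3A list was the shortest, with 1998 peaks, and its peaks were narrow, with a median of 341 bp against 356 bp for E2F3B and 605 bp for E2F1. The lists hold positions only, so the read depth and the height of each peak were unknown. A region without an E2F3A peak was not called in that library, which does not show that E2F3A was absent from it. Intervals given with shares are 95% Wilson intervals and cover counting error of regions only. Coordinates are mm9, and the genes, promoters and DNA sequence at them were not analysed here.

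Most regions had a simple make-up. Exactly 1 E2F1 peak and 1 E2F3B peak were found in 952 of the 1002 regions (95%). A further 47 regions (4.69%) had 1 E2F1 peak over 2 E2F3B peaks. Only 2 regions had 2 E2F1 peaks and 1 E2F3B peak, and 1 region had 2 E2F1 and 3 E2F3B peaks. Splitting was thus almost entirely on the E2F3B side, where peaks were narrower.

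The 47 regions with paired E2F3B peaks had wide E2F1 peaks, with a median of 853 bp, against 670 bp in the regions with 1 peak of each. The gap inside such a pair ranged from 4 to 620 bp, with a median of 88 bp. Their centres lay a median of 429.5 bp apart. In 39 of the 47 regions (83.0%) the E2F1 centre fell between the centres of both E2F3B peaks. One E2F1 peak then spanned positions that the E2F3B list resolved into a pair.

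Within a region the E2F3B peak mostly sat inside the E2F1 peak. Among the 952 regions with 1 peak of each, the E2F3B peak lay wholly within the E2F1 peak in 582 (61.1%, interval 58.0 to 64.2). The peaks overlapped in part in 346 (36.3%), and the E2F1 peak lay within the E2F3B peak in 24 (2.52%). The overlap was a median of 369 bp, with quartiles of 292 and 459 bp, and the smallest overlap was 48 bp. So no region of this kind was kept on a contact of a few bp, although 1 bp would have been enough.

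Peak centres of E2F1 and E2F3B were a median of 87.5 bp apart (quartiles 40 and 149.6 bp, largest 638 bp). Centres lay within 100 bp in 514 of 952 regions (54.0%, interval 50.8 to 57.1), against 56.1% over all 1554 regions with 1 E2F1 and 1 E2F3B peak, with or without E2F3A. In the 602 such regions that also had E2F3A the share was 59.5% (55.5 to 63.3). These intervals overlap, and no difference between the sets is claimed. Centres over 250 bp apart were found in 72 of the 952 regions (7.56%).

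Relative to the E2F1 peak, the E2F3B centre was a median of 26.4% of the way from the E2F1 centre to its edge. It was closer to the E2F1 centre than to an edge in 752 of 952 regions (79.0%, interval 76.3 to 81.5). The same share was 87.2% (84.3 to 89.6) in the 602 regions that also had E2F3A. In 20 regions (2.10%) the E2F3B centre fell outside the E2F1 peak altogether. The intervals of the 79.0% and 87.2% shares do not meet, in libraries without replicates. The measure is relative to E2F1 peak width, whose median was 676 bp in the set and 748 bp in the regions of all 3 proteins. In bp, the centre distances had medians of 87.5 and 84. The part of E2F1 width in the difference between the shares was not tested. The E2F1 peak is also the broader one, with a different antibody behind it, and the part of either in this offset was not tested.

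**Figure D1:**
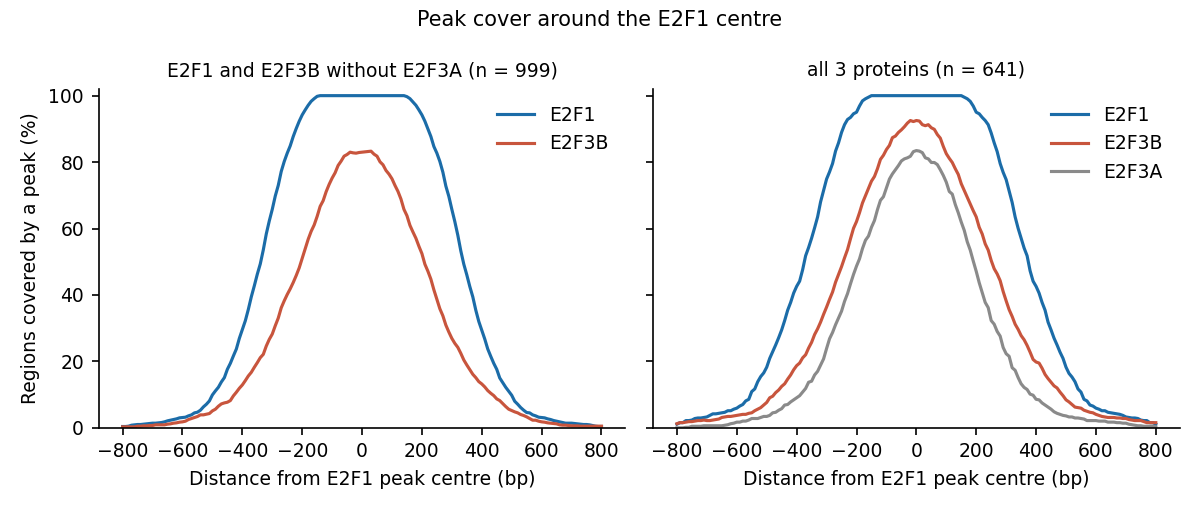
Share of regions (y axis, %) covered by a peak of each list at each distance from the E2F1 peak centre (x axis, bp), for regions with 1 E2F1 peak, without E2F3A (left, n = 999) and with it (right, n = 641). E2F3B covered 83.0% of the regions without E2F3A and 92.5% of those with it at the E2F1 centre, and the curves fall off on both sides.

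Cover around the E2F1 centre shows the same arrangement. In the 999 regions with 1 E2F1 peak, an E2F3B peak covered the E2F1 centre in 83.0%, a position 100 bp away in 75.1%, 200 bp away in 51.8% and 400 bp away in 13.1%. E2F1 peaks still covered 94.2% of positions at 200 bp and 29.5% at 400 bp. In the 641 regions that also had E2F3A, E2F3B covered 92.5% at the centre and 62.8% at 200 bp, and E2F3A covered 83.5% and 47.9%. The E2F3B cover without E2F3A was thus lower than the E2F3B cover with it at both distances. E2F3B peaks were also narrower without E2F3A (median 399 bp against 477 bp), and a narrower peak covers fewer positions. The part of width in the lower cover was not tested.

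Regions without E2F3A had peaks of intermediate width. Their E2F1 peaks had a median of 676 bp (quartiles 549 and 831 bp), between 567 bp in the 2082 regions of E2F1 alone and 748 bp in the 642 regions of all 3 proteins. The median E2F3B peak of these regions was 399 bp (317 and 487 bp), between 337 bp in the 2784 regions of E2F3B alone and 477 bp in the regions of all 3 proteins. Quartile ranges of these groups overlap. A wider peak is more easily overlapped by another, so this order is tied to how the groups were made and is given as a description with no test.

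E2F1 and E2F3B width went together only loosely from region to region. Across the 952 regions with 1 peak of each, Pearson's r of the widths was 0.31 and Spearman's rho 0.27. Regions are not replicates, and both widths share the local sequence and any background there, so no p is given. The E2F1 peak was a median of 1.66 times as wide as the E2F3B peak, and the E2F3B peak was the wider one in 83 regions (8.72%). In the regions of all 3 proteins r was 0.41 over 602 regions and the width ratio 1.49.

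**Figure D2:**
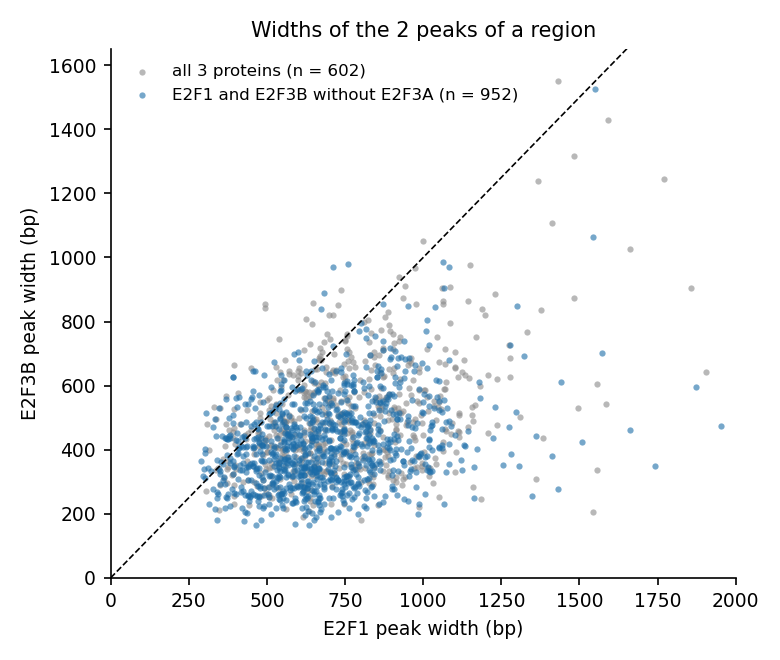
Width of the E2F1 peak (x axis, bp) against width of the E2F3B peak (y axis, bp) in regions with 1 peak of each, without E2F3A (blue, n = 952) or with it (grey, n = 602); each point is a region and the dashed line marks equal width. Most points lie under the line, and E2F3B was wider in 83 of the 952 blue points.

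The next question was how often a region with E2F1 and E2F3B went without E2F3A. Of the 1644 regions with both, 1002 lacked E2F3A, which is 60.9% (interval 58.6 to 63.3) and is also the background for the shares that follow. Where E2F1 was present and E2F3B was not, 2082 of 2139 regions lacked E2F3A (97.3%, 96.6 to 97.9). Where E2F3B was present and E2F1 was not, 2784 of 2969 did (93.8%, 92.8 to 94.6). Regions with both proteins therefore lacked E2F3A less often than regions with either one alone. Each list was then limited to its 1998 widest peaks, the length of the E2F3A list. The share at regions with both was then 51.8% (48.4 to 55.3). That limit removed narrower peaks from the E2F1 and E2F3B lists and left the E2F3A list whole. List length and peak width thus changed together, and the part of each in the lower share was not tested.

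The share without E2F3A fell as the E2F3B peak widened. Regions were ordered by the summed width of their E2F3B peaks and divided into 5 width classes of nearly equal number. In the narrowest class (166 to 326 bp) 253 of 330 regions lacked E2F3A (76.7%, interval 71.8 to 80.9). The middle classes had 66.6%, 64.8% and 54.7%. In the widest class (597 to 1567 bp) 137 of 328 lacked it (41.8%, 36.6 to 47.2), so most regions of that class also had E2F3A. Sites of E2F3B without E2F1 are not in these classes.

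By E2F1 width the fall was later and smaller. The narrowest class (289 to 537 bp) had 67.8% without E2F3A (interval 62.6 to 72.6), the following ones 65.3%, 62.7% and 62.1%, and the widest class (920 to 1954 bp) 46.8% (41.5 to 52.2). Both widths were then split together at their medians (704 bp for E2F1 and 439 bp for E2F3B). With E2F3B at or under its median, 72.9% of regions (68.9 to 76.6) with a narrow and 68.8% (63.5 to 73.7) with a wide E2F1 peak lacked E2F3A. With E2F3B over its median the shares were 55% (49.4 to 60.4) and 47.7% (43.4 to 52.1). Intervals overlapped between narrow and wide E2F1 peaks and did not meet between narrow and wide E2F3B peaks, at either E2F1 width. This split pools the widest E2F1 class, from 920 bp, with narrower peaks, and that class was not split by E2F3B width on its own.

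**Figure D3:**
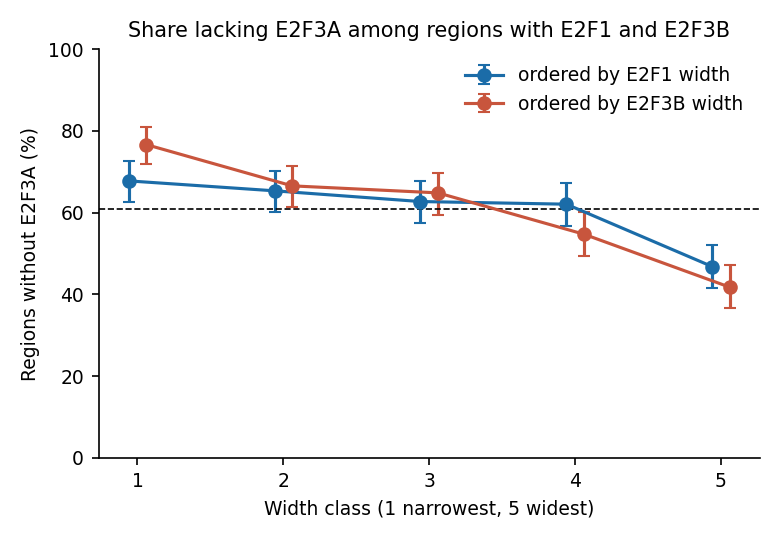
Share of the regions with E2F1 and E2F3B that lacked E2F3A (y axis, %) in each of 5 classes of peak width (x axis, 1 narrowest to 5 widest), ordered by E2F1 width (blue) or E2F3B width (red), with 95% Wilson intervals; the dashed line is the overall 60.9%. The share goes from 76.7% to 41.8% by E2F3B width and from 67.8% to 46.8% by E2F1 width.

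Fragment length and peak caller also set how wide a peak is, and a wide peak offers more bases for an E2F3A peak to touch. The part of that in the fall was not tested. In the regions of all 3 proteins with 1 peak each, the E2F3A peak was narrower than the E2F3B peak in 446 of 596 (74.8%, interval 71.2 to 78.1) and narrower than the E2F1 peak in 573 (96.1%). E2F3A peaks were therefore mostly the smallest of the 3 even where they were found.

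Chromosomes carried from 17 of these regions (chromosome 18) to 85 (chromosome 10). Per Mb between the first and last peak, chromosome 19 was the densest with 0.797 regions, followed by chromosome 17 with 0.706, 10 with 0.671, 11 with 0.669 and 15 with 0.621. Chromosome X had 0.157 and chromosome 18 had 0.213, against 0.394 overall. As a share of all merged regions on the chromosome, the set reached 21.3% on chromosome 19 and was lowest on chromosome 14, at 8.51%, against 12.8% over the genome. The share was 18.8% on chromosome X and 15.6% on chromosome 18, so a low density per Mb there went with a share above that of the genome.

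The share of E2F1 and E2F3B regions without E2F3A was close to the overall value on most chromosomes. For 16 of the 20 chromosomes the interval held the overall 60.9%. It lay above on chromosome 18, where 17 of 18 regions lacked E2F3A (94.4%, 74.2 to 99), on chromosome 19 with 46 of 59 (78.0%, 65.9 to 86.6), and narrowly on chromosome 10 with 85 of 122 (69.7%, 61.0 to 77.1). It lay below on chromosome 14, with 28 of 60 (46.7%, 34.6 to 59.1). These are 20 intervals with no adjustment for their number. With centres within 100 bp as the criterion, the intervals of chromosomes 14 (30.5 to 61.8) and 19 (58.9 to 86.2) held the overall 60.9%. Among regions with E2F3B peaks at or under the median width, the share over all chromosomes was 71.4%. The intervals of chromosomes 10, 14 and 19 held it, and that of chromosome 18 (77.2 to 100, from 13 regions) did not.

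**Figure D4:**
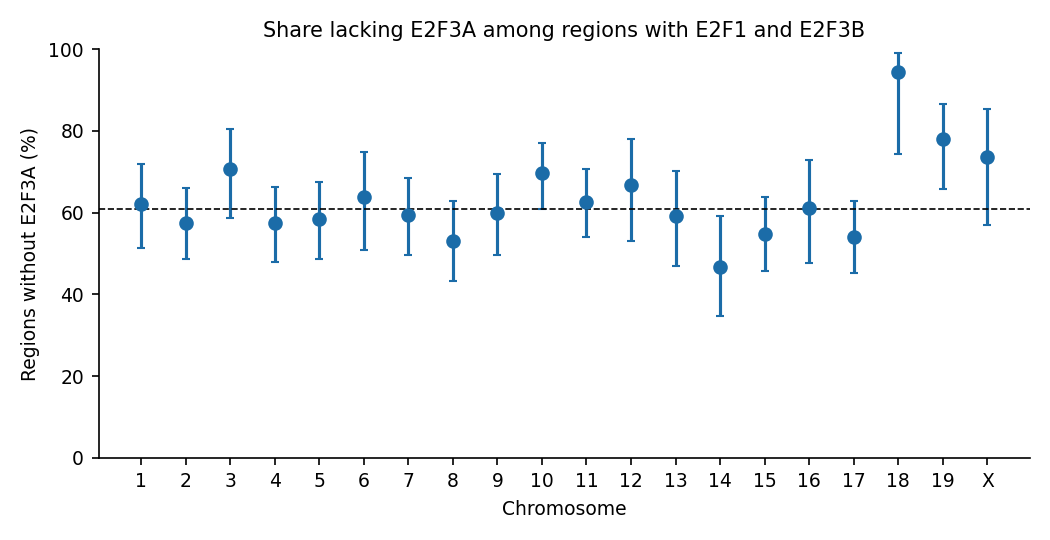
Share of the regions with E2F1 and E2F3B that lacked E2F3A (y axis, %) on each chromosome (x axis), with 95% Wilson intervals; the dashed line is the overall 60.9%. Chromosomes 10, 18 and 19 lie above the line and chromosome 14 below it with intervals that do not reach it.

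How rich a chromosome was in E2F3A peaks elsewhere can be read from regions outside this comparison, those of 1 protein alone. Per 100 regions of E2F3B alone there were 39.5 of E2F3A alone over the genome. Chromosome 19 had 23.4, chromosome 18 had 34.1, chromosome 14 had 47.3 and chromosome 10 had 55.3. Chromosomes 19 and 18 were thus below the genome value and had a high share without E2F3A, and chromosome 14 was above it with a low share. Chromosome 10 was rich in E2F3A-alone regions and still had a high share without E2F3A. Chromosome 7 had the fewest per 100, 21.8, and chromosome 11 had 26.3, yet their shares without E2F3A were 59.4% and 62.7%, near the overall value. Across the 20 chromosomes Pearson's r of both measures was -0.32 and Spearman's rho -0.44, given as a description because chromosomes of a library are not replicates.

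Most of these regions were far from any E2F3A peak. The distance to the nearest E2F3A peak had a median of 232 kb (quartiles 78.6 and 557 kb). E2F3A peaks directly beside a region were few, at shares near those of all 5868 regions without E2F3A. An E2F3A peak lay within 500 bp of 10 regions (1.00% against 1.04%), within 1 kb of 16 (1.60% against 1.53%) and within 10 kb of 49. The last count is 4.89% (interval 3.72 to 6.41), against a background of 4.69% over all 5868 regions without E2F3A. It was 3.65% (2.93 to 4.55) for E2F1 alone and 5.39% (4.61 to 6.29) for E2F3B alone, and the 3 intervals overlap. Within 50 kb the set had 17.9% (15.6 to 20.4), E2F1 alone 13.8% (12.4 to 15.4) and E2F3B alone 16.6% (15.3 to 18.1), so the interval of the set lay above that of E2F1 alone and overlapped that of E2F3B alone. Within 100 kb the shares were 29.9% (27.2 to 32.8), 24.3% (22.5 to 26.2) and 27.9% (26.3 to 29.6), in the same relation. The median distance was 309 kb for E2F1 alone and 267 kb for E2F3B alone.

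**Figure D5:**
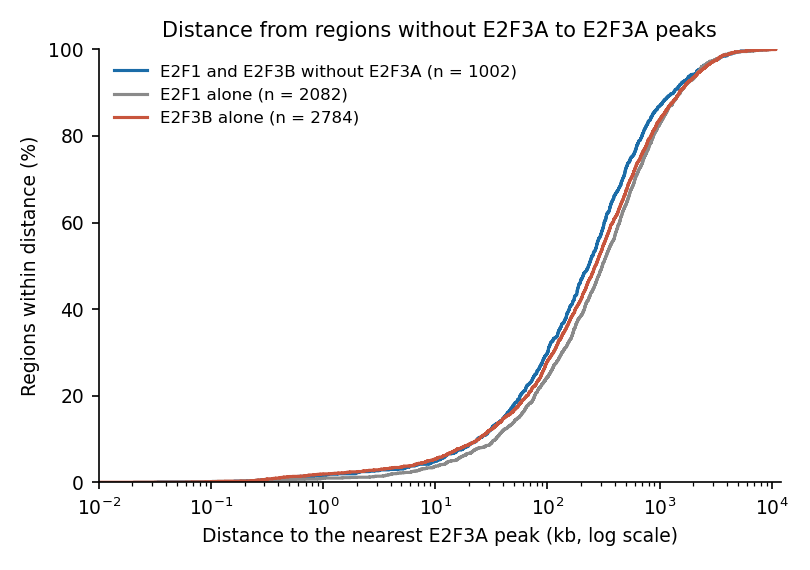
Cumulative share of regions (y axis, %) with an E2F3A peak within a given distance (x axis, kb, log scale), for regions of E2F1 and E2F3B without E2F3A (blue, n = 1002), E2F1 alone (grey, n = 2082) and E2F3B alone (red, n = 2784). The curves run close together, with medians of 232, 309 and 267 kb.

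The regions just inside the rule had an E2F3A peak beside them. At chr12:119539998-119540977, a 980 bp E2F1 peak and a 483 bp E2F3B peak lay 34 bp from a 280 bp E2F3A peak that overlapped neither. At chr10:53349631-53350203, peaks of 555 bp (E2F1) and 486 bp (E2F3B) lay 150 bp from a 504 bp E2F3A peak. At chr15:102301164-102301724, peaks of 483 bp (E2F1) and 315 bp (E2F3B) lay 162 bp from a 330 bp E2F3A peak. The E2F3A peak beside the chromosome 12 region was shared with no other list, and the other two belonged to regions of all 3 proteins.

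The regions just outside the rule had an E2F3A peak at their rim. At chr8:98330952-98332144 the 249 bp E2F3A peak overlapped the 956 bp E2F1 peak by 12 bp and did not reach the 594 bp E2F3B peak. At chr1:95582009-95583201 a 359 bp E2F3A peak overlapped the 880 bp E2F1 peak by 46 bp. At chr8:9977002-9978155 the overlap of a 414 bp E2F3A peak with the 871 bp E2F1 peak was 131 bp. Only 2 of the 642 regions of all 3 proteins had under 100 bp of E2F3A overlap, so contacts of a few bp were rare on that side too.

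Of the 49 regions with an E2F3A peak within 10 kb, 20 had as nearest E2F3A peak one from a region of all 3 proteins (40.8%), the class of 32.4% of the 1984 regions with E2F3A. A further 18 had one shared with no other list (36.7%, against 55.4% of regions with E2F3A). For 6 it was shared with E2F1 (12.2% against 2.87%) and for 5 with E2F3B (10.2% against 9.32%). With 49 regions these shares are coarse, and their difference was not tested.

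The regions farthest from E2F3A were on chromosome 7. At chr7:65913195-65913989, a 795 bp E2F1 peak and a 452 bp E2F3B peak with centres 10.5 bp apart lay 9.41 Mb from the nearest E2F3A peak. The region chr7:71083531-71084336 (501 bp E2F1, 473 bp E2F3B) lay 8.17 Mb away and chr7:63305246-63305851 (606 bp and 417 bp) 6.80 Mb away. All 3 fell in a stretch of 22.8 Mb, from 56501707 to 79251803, that had no E2F3A peak but 9 E2F1 and 14 E2F3B peaks.

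Among stretches between 2 neighbouring E2F3A peaks, the one with the most of these regions was much shorter. Between 79630622 and 80363579 on chromosome 10, 0.733 Mb without an E2F3A peak, there were 10 of them among 14 E2F1 and 15 E2F3B peaks. Chromosome ends beyond the outermost E2F3A peak were not ranked. On chromosome 19 such an end, before the E2F3A peak at 5963936, held more regions of the set than the chromosome 10 stretch. In any stretch without E2F3A, each region with E2F1 and E2F3B belongs to the set by the rule. Counts in such stretches therefore only describe where the set lay. Over the genome the set took in 26.5% of E2F1 and 22.3% of E2F3B peaks. The region widths in the chromosome 10 stretch ran from 460 to 1543 bp. Of the 1543 bp region at chr10:80260385-80261927, the E2F1 peak covered all and the E2F3B peak 1064 bp, with centres 61.5 bp apart. The bins of 1 Mb from 79 to 80 Mb and from 80 to 81 Mb on this chromosome were the richest of the genome, with 11 and 10 regions, while 432 bins held 1. The first bin also held 12 regions of E2F3B alone, 7 of E2F1 alone, 2 of all 3 proteins and 0 of E2F3A alone.

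The next stretch between 2 neighbouring E2F3A peaks lay on chromosome 3. There 7 regions stood between 88527925 and 90051803 (1.52 Mb) with 11 E2F1 and 19 E2F3B peaks. Another, on chromosome 13 between 23666404 and 23853025, held 6 regions in 0.187 Mb. These took 6 of the 7 E2F1 peaks and all 6 E2F3B peaks of the stretch. The 1 Mb bin around it, from 23 to 24 Mb, also had 5 regions of all 3 proteins, outside the stretch. On chromosome X, 31.5 Mb without E2F3A held 5 of the regions, with 7 E2F1 and 7 E2F3B peaks. On chromosome 18, 4.30 Mb held 5 regions, with 10 E2F1 and 9 E2F3B peaks.

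Another region of the set lay within 10 kb of 29 of the 1002 (2.89%, interval 2.02 to 4.13), against a background of 2.75% over all 7852 regions, and the median distance to the nearest one was 343 kb. Within 50 kb the share was 13.8% (11.8 to 16.0), against 10.8% (10.1 to 11.5) over all regions, and within 100 kb 24.6% (22.0 to 27.3) against 18.5% (17.7 to 19.4). At these longer ranges the intervals of the set lay above those of all merged regions. Regions of all 3 proteins had a region of the set within 50 kb in 15.1% (12.5 to 18.1) and within 100 kb in 24.6% (21.4 to 28.1), intervals that overlap those of the set. Any other merged region lay within 10 kb of 188 (18.8%, interval 16.5 to 21.3), against a background of 17.6% over all 7852 regions. It was 22.0% (18.9 to 25.3) for regions of all 3 proteins and 10.5% (8.87 to 12.5) for E2F3A alone. Of those 188 nearest neighbours, 74 were regions of E2F3B alone (39.4%, against 35.5% of all regions), 45 of E2F1 alone (23.9% against 26.5%) and 17 of E2F3A alone (9.04% against 14.0%).

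Chained at 10 kb, the set gave 11 pairs, 1 group of 3 and 1 group of 4, and 973 regions on their own. The group of 4 was on chromosome 13, in the stretch named above, at chr13:23830376-23830846, chr13:23831397-23832170, chr13:23837206-23837697 and chr13:23843618-23844331. Its E2F1 peaks were 329, 707, 492 and 707 bp wide and its E2F3B peaks 471, 366, 223 and 310 bp. The nearest E2F3A peak, 574 bp wide and in a region of all 3 proteins, lay 8.69 kb from the last of them. Here the E2F3B peak was the wider one in the first region only.

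The group of 3 was on chromosome 9, at chr9:56920706-56921278, chr9:56921330-56921820 and chr9:56923506-56925037. The first had peaks of 554 bp for E2F1 and 426 bp for E2F3B, the second 405 and 453 bp, and the third 2 E2F1 peaks of 1283 bp in total joined by a 360 bp E2F3B peak. The closest E2F3A peak was 237 kb away. Among the 11 pairs, the one spanning the fewest bp was on chromosome 8, with chr8:4677222-4677589 (368 bp E2F1, 253 bp E2F3B) beside chr8:4677613-4678447 (647 bp and 543 bp). The smallest gap between 2 regions of the set, 0.011 kb, was on chromosome 10, between chr10:79861265-79862105 and chr10:79862117-79862576.

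In each of the 10 widest regions, 1533 to 1954 bp, the E2F1 peaks were together wider than the E2F3B peaks, as in most regions of the set. The widest, chr17:35117584-35119537, was an E2F1 peak of 1954 bp with an E2F3B peak of 473 bp whose centre was 362.5 bp away. The next, chr14:19070109-19071982, had 1874 bp for E2F1 and 597 bp for E2F3B, with centres 600.5 bp apart. In the third, chr17:27691773-27693529, both peaks were wide, with 1551 bp for E2F1 and 1526 bp for E2F3B, and an E2F3A peak shared with E2F3B lay 8.98 kb away.

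Others joined a very wide E2F1 peak to an ordinary E2F3B peak. At chr9:106182346-106184087 the widths were 1742 and 349 bp, at chr6:134877765-134879426 they were 1662 and 463 bp, and at chr9:102619529-102621147 they were 1573 and 702 bp. The region chr10:118675886-118677425 had a 1540 bp E2F1 peak over 2 E2F3B peaks of 821 bp in total. At chr17:87681863-87683564, 2 E2F1 peaks (1257 bp in total) were joined with 3 E2F3B peaks (1204 bp), the most peaks of any region in the set. The regions next in the number of peaks each had 1 E2F1 and 2 E2F3B peaks, as at chr1:44158943-44159583 (583 bp of E2F1, 605 bp of E2F3B) and chr1:74437862-74439094 (1147 and 1079 bp, with an E2F3A peak 999 bp away).

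In the narrowest regions the peak centres lay close together, which the width of such a region requires. The region chr19:39005256-39005567 (312 bp) had a 301 bp E2F1 and a 311 bp E2F3B peak with centres 6.0 bp apart. At chrX:100817674-100817989 (316 bp) the E2F1 peak was the whole region and the E2F3B peak 231 bp, with centres 11.5 bp apart. At chr2:154261835-154262151 (317 bp) the widths were 294 and 317 bp and the centres 6.5 bp apart.

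Centre distances bracketed the set. The largest were 638 bp at chr10:80039990-80041522, where a 379 bp E2F3B peak lay at one end of a 1411 bp E2F1 peak, 600.5 bp in the chromosome 14 region above, and 565 bp at chr9:21171743-21172945 (680 and 596 bp). The smallest was 0 bp, found in 1 region, chr19:4148420-4148758, with widths of 339 and 249 bp. It was 0.5 bp at chr5:130417309-130418000 (692 and 583 bp) and at chr17:48061494-48062345 (852 and 647 bp).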

How the data were processed

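Peak lists of 3 ChIP-seq samples, 1 library each, were used. Bowtie2, SAMtools and mm9 are named in the submitters' processing notes, without versions, and per the file headers each deposited list gives chromosome, start, end and peak name. The names carry MACS. Its version, threshold and control, and the handling of PCR duplicates, were not stated in these sources, and each of these would change which regions hold a peak. No blacklist of repeat-rich or otherwise unreliable regions was applied.

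Starts were taken as counted from 0, and 1 was added for printing. Peaks overlapping by at least 1 bp were merged and classed by list. Centres are the midpoints of peaks. Distances run between the nearest edges, and shares have 95% Wilson intervals. No test was made, since there is 1 library per protein and the lists define the set. Depth was unknown.

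Regions named are the 10 widest, the 3 narrowest, the 3 with the most peaks, the 3 nearest to and farthest from E2F3A, the 3 largest and smallest centre distances, the 3 densest groups and the 3 just outside the rule. The stretches free of E2F3A, each between 2 neighbouring E2F3A peaks, and the 1 Mb bins were chosen after their values were seen. The set and the measures were chosen with earlier results of these data known. No mm9 genome or annotation was used, so planned promoter, motif and gene counts were not made. Merging was checked on 3 simulated sets of 7852 regions, which returned all 1002 planted regions of this class. The versions were matplotlib 3.10.9, scipy 1.17.1, numpy 2.4.6 and Python 3.11.15.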

Additional observations from a re-analysis of the deposited data

How the results depend on the processing

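The number of regions depended on the criterion and the list length, and the share without E2F3A less so. The 1002 regions became 683 with 50% reciprocal overlap, 581 with centres within 100 bp, 565 with the 50% widest peaks of each list and 422 with as many widest peaks as the shortest list holds. They were 1012 when peaks at most 500 bp apart were merged, 1005 without chaining and 986 without those near E2F3A. The share of 60.9% was 67.4% with the 50% widest peaks and 51.8% with lists of equal length, and between 60.6% and 61.5% in the other 5 alternatives. With E2F3B peaks at or under their median width, chosen after seeing the data, it was 71.4%. It was then 80% on chromosomes 10 and 19, 65.5% on chromosome 14 and 100% on chromosome 18, the last from 13 regions. At this setting 9 of the 20 chromosomes stayed inside their own main interval. Of the 4 that departed only chromosome 18 still did from the 71.4%. Chromosome 18 also had 100% with centres within 100 bp, from 10 regions, and the other 19 chromosomes stayed inside their own intervals, but chromosomes 14 and 19 no longer departed from the overall share. With 50% reciprocal overlap the median widths were 641 bp for E2F1 and 468 bp for E2F3B and the centre distance 72.5 bp, since the criterion itself favours peaks of like size. Wider windows hold more: 13.8% of regions had another of the set within 50 kb, against 10.8% of all regions, and 3.09% and 17.9% had E2F3A within 5 and 50 kb, against 3.00% and 15.8% of all regions without E2F3A. Alternatives resting on a genome were not run. No paired analysis was possible because each protein had 1 library. Without depth or scores, an E2F3A site below the threshold of the caller counts here as missing.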

Other observations

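The peak names are numbered in order along each list, and a few numbers have no peak in the lists used. These are 16 of 3803 in the E2F1 list, 10 of 2008 in the E2F3A list and 12 of 4716 in the E2F3B list. Peaks behind these numbers were not analysed here.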
